A study of Mus musculus with 18 samples.

Results

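Transcripts of the chemokine genes *Ccl2*, *Ccl3*, *Ccl4*, *Ccl5*, *Ccl7*, *Ccl12*, *Cxcl1*, *Cxcl10*, *Cxcl16* and *Cx3cl1* were followed in mouse retina and in 661W cells after expression of a normoxia-stable *Hif1a* (*nsHif1a*). These 10 genes were taken by name, with earlier results of these data known, from the 78239 genes of the count tables. No member passed the thresholds for an effect of *nsHif1a* in either experiment. In the retina *Ccl5* and *Cxcl10* had 0 to 15 counts in 3 of the 5 control libraries and 29 to 287 counts in the other 2, and in the cells the effect on 5 of 8 tested members differed between replicates 1 and 2 and replicates 3 and 4, as it did for 19.6% of all genes tested.

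*nsHif1a* encodes a mouse HIF1A, the oxygen-regulated subunit of the transcription factor HIF1, altered so that the protein stays stable and active in normal oxygen. For the retina, mice were injected under the retina at postnatal days 29 to 32 with AAV::*nsHif1a* or AAV::eGFP, and the retinas were collected 3 weeks post injection (wpi), giving 5 libraries per group. Both viruses carried the mouse opsin promoter mOP, which is active in rods, and reached only part of the retina, so that each library mixed transduced and untransduced tissue. The labels give the strain as C57BL/6J, whereas the study's methods describe wild-type 129S6 mice. For the cells, 661W, a photoreceptor-like mouse line that came from a retinal tumour, was transfected with a plasmid that expressed *nsHif1a* or eGFP from a CMV promoter and was harvested after 20 h, giving 4 libraries per group. Nothing in the labels says that the libraries of the cells came from separate cultures, so that their *p*-values measure the spread between these libraries, which may be technical.

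Chemokines are small secreted proteins that guide leukocytes along a gradient by activating receptors of the G protein-coupled family. CCL2, CCL7 and CCL12 act on CCR2 and draw monocytes, CCL3, CCL4 and CCL5 draw monocytes and T cells, CXCL1 draws neutrophils through CXCR2, and CXCL10, an interferon-induced chemokine, draws T cells through CXCR3. CXCL16 and CX3CL1 are made as membrane proteins that proteases such as ADAM10 and ADAM17 can release, and in the retina CX3CL1 from neurons signals to CX3CR1 on microglia.

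The libraries held 12898220 to 17809585 counts, so that 3 counts, the limit that a count of 0 allows, corresponded to 0.169 to 0.229 CPM (counts scaled to a common library total), which covers counting error only. In 661W cells *Hif1a* was at 157 ± 6.79 CPM (SD, n = 4) with eGFP and at 1222 to 1954 CPM in the *nsHif1a* libraries, whereas in the retina it was at 668 ± 26.1 and 687 ± 31.6 CPM (SD, n = 5 each), so that in the retina the *Hif1a* counts did not tell the groups apart (log2FC 0.05, adjusted *p*-value = 0.50, limma with Benjamini-Hochberg adjustment, BH). Retinal libraries of AAV::*nsHif1a* and AAV::eGFP libraries 1 and 2 held 19492 to 28595 counts of *Xist*, the transcript of the inactive X chromosome, against 1 to 3 counts in AAV::eGFP libraries 3, 4 and 5. The Y-linked genes *Ddx3y*, *Eif2s3y*, *Kdm5d* and *Uty* summed to 0 counts in each library with *Xist* counts and to 2701 to 3509 in AAV::eGFP libraries 3, 4 and 5. By these transcripts the former were female and the latter male, so that sex was unevenly spread over the groups. The rod markers summed to 34305 to 48648 CPM in the retina and to 8.89 to 13.2 CPM in the cells, and the cone markers to 1.88 to 4.71 CPM in the cells, so that the defining photoreceptor transcripts were close to absent from 661W cells. Each sum below is over a whole list of marker genes.

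Of the 10 members, 7 lie on chromosome 11, in the GRCm39 build and the gencode M39 annotation. *Ccl2* (chr11:81926397-81928279), *Ccl7* (chr11:81936532-81938351) and *Ccl12* (chr11:81992645-81994466) are neighbours on the forward strand, 8.25 kb and 54.3 kb apart. *Ccl5* (chr11:83416602-83425942) and *Ccl3* (chr11:83538670-83540191), both on the reverse strand, lie 113 kb apart, and *Ccl4* (chr11:83553383-83555509, forward strand) follows *Ccl3* at 13.2 kb. *Cxcl16* (chr11:70344517-70352620, reverse strand) lies apart from these clusters. *Cxcl1* (chr5:91039094-91040974, forward strand), *Cxcl10* (chr5:92494497-92496748, reverse strand) and *Cx3cl1* (chr8:95498637-95509055, forward strand) are on other chromosomes. All 10 are protein coding, the counts are those of their exons, and 0% of the 50-base words of their transcripts occurred in another gene.

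Promoter sequences of 5 members were found in the RefSeq table of the GRCm38.p6 build, whose coordinates differ from those above. They are *Ccl3*, *Ccl12*, *Cxcl1*, *Cxcl10* and *Cx3cl1*, whereas *Ccl2*, *Ccl4*, *Ccl5*, *Ccl7* and *Cxcl16* had no entry. The 250 bases before the start are shown for *Cxcl10* (chr5:92348890-92349139, reverse strand) and *Cxcl1* (chr5:90890995-90891244, forward strand). Both rose in replicates 1 and 2 of the cells, whereas *Cxcl1* fell in replicates 3 and 4. Also shown is *Cx3cl1* (chr8:94771930-94772179, forward strand), the member with the steadiest level in the retina. Each window is written in the direction of the gene, and capitals mark the motifs searched on both strands.
Cxcl10: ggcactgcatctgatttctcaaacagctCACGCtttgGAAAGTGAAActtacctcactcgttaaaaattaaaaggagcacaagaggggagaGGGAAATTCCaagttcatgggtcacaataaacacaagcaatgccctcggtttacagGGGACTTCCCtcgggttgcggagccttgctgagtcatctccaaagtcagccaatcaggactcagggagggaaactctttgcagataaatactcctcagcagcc
Cxcl1: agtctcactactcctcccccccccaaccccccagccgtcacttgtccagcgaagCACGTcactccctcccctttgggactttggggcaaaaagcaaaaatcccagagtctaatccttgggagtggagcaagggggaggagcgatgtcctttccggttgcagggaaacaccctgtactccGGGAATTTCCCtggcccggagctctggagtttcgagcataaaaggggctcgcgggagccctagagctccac
Cx3cl1: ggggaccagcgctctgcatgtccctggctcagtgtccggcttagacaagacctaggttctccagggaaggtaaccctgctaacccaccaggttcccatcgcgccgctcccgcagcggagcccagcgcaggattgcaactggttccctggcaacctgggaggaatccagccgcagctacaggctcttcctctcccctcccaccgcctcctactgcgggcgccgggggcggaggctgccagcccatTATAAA
The motifs were the core of the hypoxia response element (ACGTG or GCGTG), the interferon response motif GAAANNGAAA, the NF-kB motif and the TATA box TATAAA. *Cxcl10* held the interferon motif at bases -213 to -204 before the start, NF-kB motifs at -159 to -150 and -103 to -94, and the hypoxia core on the reverse strand at -222 to -218. *Cxcl1* held the NF-kB motif at -71 to -62, overlapping a match on the other strand at -70 to -61, and the hypoxia core on the reverse strand at -196 to -192. *Cx3cl1* held only TATAAA, at -6 to -1, and among the 2 windows not shown *Ccl12* held TATAAA at -31 to -26 and *Ccl3* held none of the 4 motifs. Of all 32851 promoter windows of the table, 38.6% held the hypoxia core, 2.98% the interferon motif, 3.9% the NF-kB motif and 12.4% TATAAA. A match describes these letters and does not show that a factor binds there.

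The 2 experiments differed in which chemokines they contained. Levels of different genes were compared as CPM per kb of exon, in the eGFP libraries. In the retina *Cx3cl1* was highest at 31.05 ± 0.80 CPM per kb (SD, n = 5), above every library of *Cxcl16*, which followed at 6.83 ± 2.37. From *Cxcl16* down to *Cxcl10* (3.44 ± 5.21), *Ccl5* (2.72 ± 4.27), *Ccl2* (1.99 ± 2.40), *Ccl12* (0.84 ± 0.80), *Ccl7* (0.33 ± 0.30), *Ccl4* (0.26 ± 0.28), *Cxcl1* (0.15 ± 0.15) and *Ccl3* (0.15 ± 0.20), each member overlapped the next over the libraries, so that this part of the order was not resolved. *Cx3cl1* alone made up 63.2% to 89.0% of the counts of the 10 members in each retinal library of either group, and *Cxcl16* 10.2% to 20.4%.

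In 661W cells *Ccl5*, *Ccl2*, *Cxcl10* and *Ccl7* were the abundant members. *Ccl5* was highest at 961 ± 25.95 CPM per kb (SD, n = 4), followed by *Ccl2* (360 ± 36.9), *Cxcl10* (243 ± 25.3) and *Ccl7* (100.3 ± 13.5), and no library of one overlapped the next. *Cx3cl1* (9.20 ± 0.64) and *Cxcl1* (8.04 ± 0.54) overlapped each other, as did *Cxcl16* (1.77 ± 0.21) and *Ccl4* (1.30 ± 0.72). *Ccl12* and *Ccl3* had 0 counts in each eGFP library of the cells, which allows at most 0.225 CPM in the shallowest of them. Retina and cells were separate experiments with separate tables, so these levels stand side by side and were not tested against each other. In bulk RNA, fewer cells of a type and less RNA per cell cannot be told apart.

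**Figure D1:**
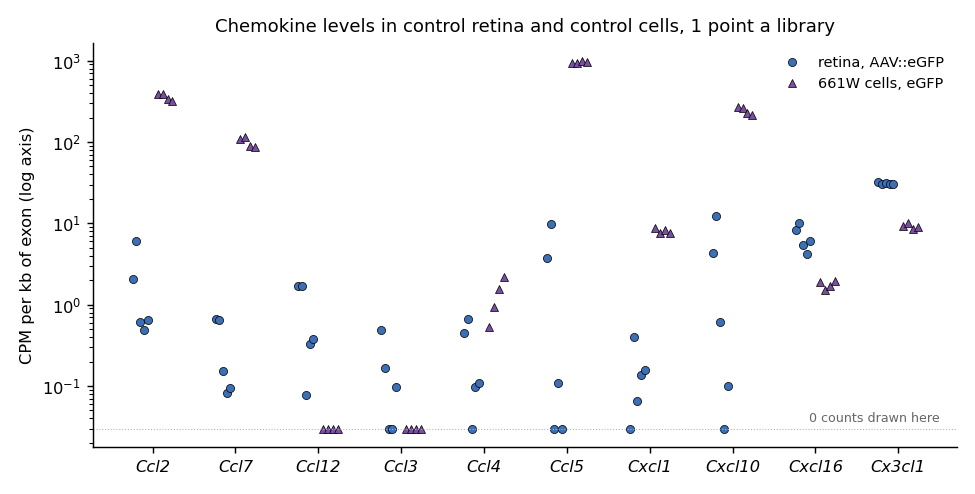
Levels of the 10 chemokine genes as CPM per kb of exon on a log axis, with 1 circle for each of the 5 AAV::eGFP retinas and 1 triangle for each of the 4 eGFP libraries of 661W cells. *Ccl2*, *Ccl5*, *Ccl7* and *Cxcl10* sit highest in the cells, *Cx3cl1* and *Cxcl16* are higher in the retina, and points on the dotted line are 0 counts.

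The comparison of AAV::*nsHif1a* with AAV::eGFP retinas asks what HIF1 activity in rods does to chemokine transcripts of the whole tissue. Only *Ccl2*, *Ccl5*, *Ccl12*, *Cxcl10*, *Cxcl16* and *Cx3cl1* passed the filter on low counts. Of these 6 members, 0 rose and 0 fell at an adjusted *p*-value under 0.05 and an absolute log2FC above 0.5 (limma, BH over 18859 genes), against 1.08% and 0.912% of all genes tested. At an unadjusted *p*-value under 0.05 there were 3, namely *Cxcl10*, *Ccl5* and *Cx3cl1*, against 4097 of the 18859 genes tested (limma). The same shares and background apply to the called and unadjusted counts of other gene lists between the retinal groups below. The quasi-likelihood test of edgeR and DESeq2 called 0 of the 6 and had 0 at an unadjusted *p*-value under 0.05. *Ccl3*, *Ccl4*, *Ccl7* and *Cxcl1* had 0 to 19 counts per library and were fitted without the filter by edgeR, which called 0 of all 10 members. That fit had 1 member, *Cx3cl1*, at an unadjusted *p*-value under 0.05, against 4763 of 42698 genes.

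Of the ligands of CCR2, *Ccl2* had 22, 77, 8, 6 and 7 counts in AAV::eGFP libraries 1 to 5 and 7, 29, 20, 11 and 45 counts in AAV::*nsHif1a* libraries 1 to 5. The highest library was a control and the groups overlapped over most of their range. The means were 1.61 ± 1.95 and 1.48 ± 0.94 CPM (SD, n = 5 each), and the log2FC was 0.53 (SE 0.61, adjusted *p*-value = 0.66, limma) but -0.12 with edgeR. *Ccl12* had 18, 21, 1, 4 and 4 counts with AAV::eGFP and 9, 25, 13, 7 and 30 with AAV::*nsHif1a*. All 5 *nsHif1a* libraries lay above the control median, but controls 1 and 2 lay among them, and the log2FC was 1.29 (SE 0.62, adjusted *p*-value = 0.25, limma). *Ccl7* had 7, 8, 2, 1 and 1 counts against 5, 5, 6, 6 and 12, and its log2FC was 0.80 (adjusted *p*-value = 0.54, edgeR without filter).

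Among *Ccl3*, *Ccl4* and *Ccl5*, *Ccl5* had the widest range. It had 29, 91, 0, 1 and 0 counts with AAV::eGFP and 2, 47, 35, 67 and 29 counts with AAV::*nsHif1a*. Controls 1 and 2 fell inside the range of the *nsHif1a* libraries or above it, and the other 3 controls were at the limit of detection. The means were 1.63 ± 2.56 and 2.40 ± 1.61 CPM (SD, n = 5 each). The log2FC was 3.08 (95% confidence interval 0.19 to 5.97, adjusted *p*-value = 0.20, limma) and 0.57 with edgeR without filter. *Ccl3* had 5, 2, 0, 0 and 1 counts against 1, 2, 2, 4 and 9, and *Ccl4* had 4, 7, 0, 1 and 1 against 0, 2, 3, 4 and 5. At these counts no difference was detectable (log2FC 1.06 and 0.08, adjusted *p*-values = 0.54 and 1, edgeR without filter).

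*Cxcl10*, the ligand of CXCR3, had 85, 287, 15, 0 and 2 counts in the AAV::eGFP libraries and 30, 108, 84, 99 and 173 in the AAV::*nsHif1a* libraries. All *nsHif1a* libraries exceeded controls 3, 4 and 5, and none reached control 2. The means were 5.22 ± 7.91 and 6.57 ± 3.15 CPM (SD, n = 5 each). The log2FC was 3.04 (95% confidence interval 0.60 to 5.47, adjusted *p*-value = 0.14, limma) and 0.34 with edgeR without filter. Without AAV::eGFP library 2 the log2FC was 4.31 and *Cxcl10* was called (adjusted *p*-value = 0.033, limma). In that fit 313 of all genes were called up, against 203 with every library. *Cxcl1*, the neutrophil attractant, had 0, 6, 1, 2 and 2 counts against 1, 4, 3, 19 and 5, and its log2FC was 1.49 (adjusted *p*-value = 0.46, edgeR without filter). The 19 counts came from 1 library, and no other retina had more than 6.

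The membrane-bound chemokines had the most counts of the members in the retina, and *Cx3cl1* had the smallest spread relative to its level. Per kb of exon only *Cx3cl1* stood apart, as *Cxcl10* (12.2 CPM per kb) exceeded *Cxcl16* (10.2) in AAV::eGFP library 2. *Cxcl16* had 320, 472, 265, 190 and 243 counts with AAV::eGFP and 245, 388, 336, 416 and 492 with AAV::*nsHif1a*, that is 20.4 ± 7.08 and 25.3 ± 4.99 CPM (SD, n = 5 each). The groups overlapped and the log2FC was 0.37 (SE 0.20, adjusted *p*-value = 0.30, limma). *Cx3cl1* had 1501, 1665, 1825, 1660 and 1458 counts against 1881, 1989, 1791, 1648 and 1607, that is 111 ± 2.85 and 122 ± 14.6 CPM. Its log2FC of 0.15 (95% confidence interval 0.01 to 0.28, adjusted *p*-value = 0.20, limma) lay below the fold threshold, and 4 of 5 *nsHif1a* libraries were above the control median. The transcripts of the proteases that release both chemokines, *Adam10* (log2FC 0.06) and *Adam17* (log2FC 0.12), did not pass the thresholds either.

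**Figure D2:**
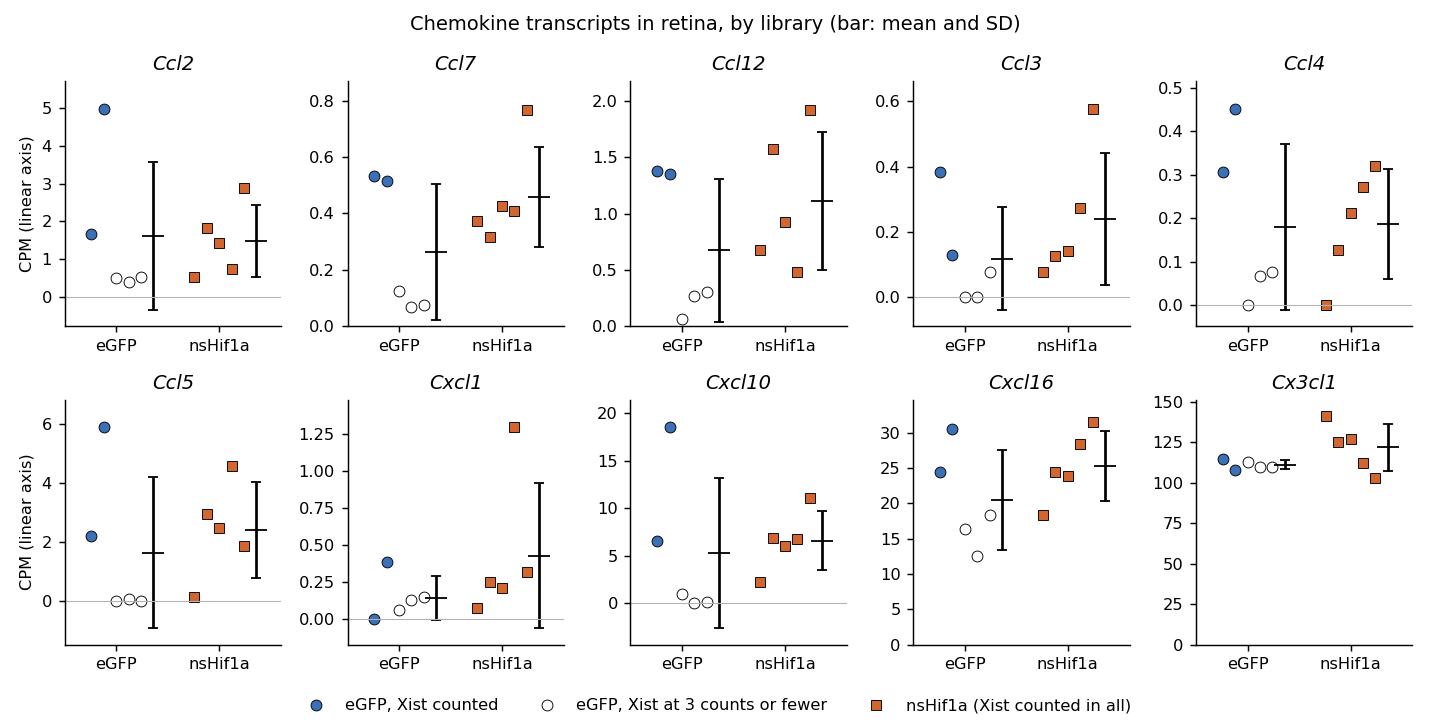
CPM of each chemokine gene in the 10 retinal libraries on linear axes, in library order from left to right within a group, with the mean and SD at the side. Filled circles are AAV::eGFP libraries with *Xist* counts, open circles those with 3 or fewer, and squares AAV::*nsHif1a*; for *Ccl2*, *Ccl5*, *Ccl7*, *Ccl12* and *Cxcl10* the open circles lie at the bottom and the filled ones among or above the squares.

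The controls therefore divided in the same way for several chemokines as for *Xist*. The control libraries were split by *Xist*, and not by a chemokine, after the data had been seen, and the 3 sets of libraries were fitted together. Between the 2 controls with and the 3 controls without *Xist* counts, 2 of the 6 members were called higher and 0 lower (*Ccl5* and *Cxcl10*), against 0.811% and 0.0795% of all genes tested. *Cxcl10* had 372 summed counts in the 2 libraries with *Xist* and 17 in the 3 without, which is 34.1 times the level (95% counting interval 21 to 59.3). A counting interval covers counting error of the summed counts only and leaves out the spread between libraries. The limma fit, which includes that spread, gave *Cxcl10* a log2FC of 6.25 (adjusted *p*-value = 0.037, limma). *Ccl5* had 120 and 1 summed counts, a ratio of 187 with a 95% counting interval of 33 to 7457 (adjusted *p*-value = 0.031, limma). The log2FC was 2.59 for *Ccl2*, 2.51 for *Ccl12* and 0.81 for *Cxcl16*, with adjusted *p*-values of 0.084, 0.064 and 0.060 (limma). *Cx3cl1* differed by 0.01 (95% confidence interval -0.18 to 0.19).

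Against the controls with *Xist* counts, 0 of the 6 members rose and 0 fell with *nsHif1a* (limma, BH), against 0.551% and 0.62% of all genes tested, and 1, *Ccl2*, had an unadjusted *p*-value under 0.05. Here 5 of the 6 log2FC values were below 0, at -1.17 for *Ccl2*, -0.97 for *Ccl5*, -0.93 for *Cxcl10*, -0.39 for *Ccl12* and -0.16 for *Cxcl16*, and that of *Cx3cl1* was 0.14. Against the controls without *Xist* counts, 4 of the 6 rose and 0 fell, against 1.69% and 1.39% of all genes tested. These were *Cxcl10* (log2FC 5.33, adjusted *p*-value = 0.026), *Ccl5* (5.27, 0.022), *Ccl12* (2.13, 0.036) and *Cxcl16* (0.66, 0.031), all with limma. As a ratio of summed counts the level was 17.6 times (95% counting interval 10.9 to 30.5) for *Cxcl10*, and 109 times (19.3 to 4332) for *Ccl5* against 1 count. Both intervals again leave out the spread between libraries. Every AAV::*nsHif1a* library had *Xist* counts, so that in this last comparison the transgene and the *Xist* class, and with it sex, cannot be told apart. The shares of all genes given for each control class, and between the classes, apply also to the gene lists below.

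**Figure D3:**
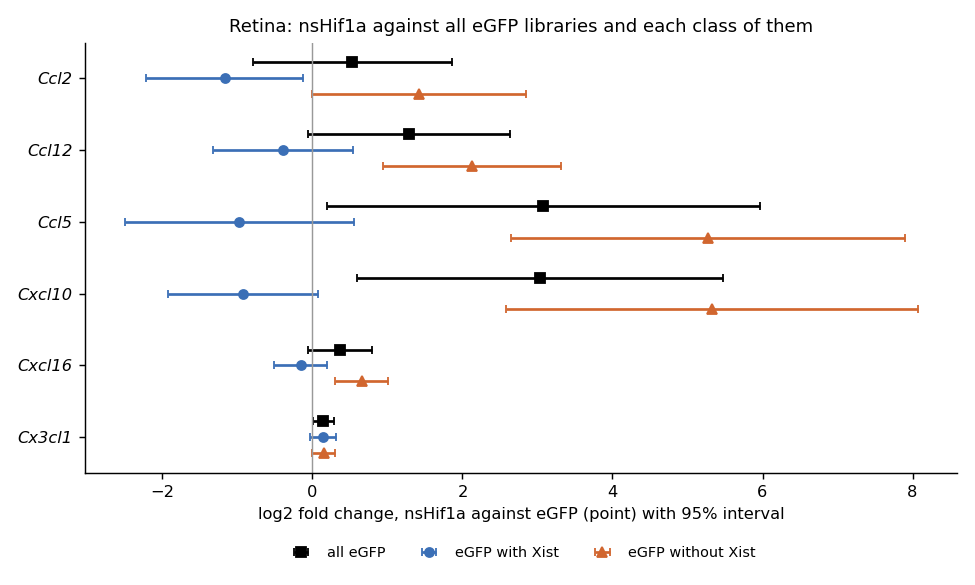
Log2FC of the 6 tested chemokine genes in AAV::*nsHif1a* retinas with its 95% interval, against all 5 AAV::eGFP libraries (squares), the 2 with *Xist* counts (circles) and the 3 without (triangles). *Ccl5* and *Cxcl10* lie near 5 against the latter and below 0 against the former, and *Cx3cl1* stays between 0.14 and 0.15 in all 3.

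The summed markers of microglia, monocytes and T and NK cells were lower in the 3 controls without *Xist* counts than in the 2 with them. Those of neutrophils overlapped between the control classes. The 14 detected microglia markers summed to 62.5 to 99.4 CPM in the 3 controls without *Xist* counts, to 153 and 281 CPM in the 2 with them and to 99.5 to 288 CPM with *nsHif1a*, and of the 14 tested 0 passed the thresholds between the groups although all 14 were higher with *nsHif1a* (median log2FC 1.10, against -0.0021 over all genes, with 6 at an unadjusted *p*-value under 0.05, limma). This direction turned with the controls, the median being -0.16 with 0 called against the controls with *Xist* counts and 1.71 with 6 called up against those without. The 6 monocyte markers summed to 2.97 to 8.96, 10.6 to 29.3 and 8.10 to 32.5 CPM, and the 8 T and NK cell markers to 0.396 to 0.804, 0.917 to 9.37 and 1.05 to 4.77 CPM, in the same order, and no T and NK cell marker passed the filter. Single genes of these 2 lists were mixed between the groups. By mean CPM *Ly6c2*, *Chil3*, *F13a1*, *Cd4*, *Cd8a*, *Gzmb* and *Nkg7* were lower with *nsHif1a* and the others higher. Neutrophil markers summed to 19.8 to 25.1 CPM over all 10 retinas, mostly from *Mmp9*, at a mean of 18.8 CPM with AAV::eGFP and 17.8 CPM with AAV::*nsHif1a* (log2FC -0.08). *Csf3r*, the other one tested, was at a mean of 1.92 and 3.34 CPM (log2FC 1.01, adjusted *p*-value = 0.24, limma). No marker of these lists was at 0 in every retina. RPE markers moved the other way between the controls, at 55.9 and 72.5 CPM with *Xist* counts and 227 to 718 CPM without, and were at 53.2 to 851 CPM with *nsHif1a*. Their median log2FC between the 2 control classes was -3.29, with 0 of 6 called (limma). The part of these cells in the chemokine counts was not tested.

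The levels of the receptors differed widely in the retina. *Ackr1*, an atypical receptor that binds several chemokines without G protein signalling, had 631 to 909 counts in every library (52.5 ± 4.63 and 55.8 ± 4.64 CPM, SD, n = 5 each, log2FC 0.07, adjusted *p*-value = 0.59, limma). *Cx3cr1*, the microglial receptor of CX3CL1, had 141, 291, 78, 53 and 96 counts with AAV::eGFP and 91, 208, 144, 232 and 249 with AAV::*nsHif1a* (log2FC 0.69, adjusted *p*-value = 0.29, limma), whereas its ligand varied little. *Ccr2* had 16, 45, 2, 0 and 4 counts against 7, 15, 12, 25 and 32, and thus was low in the same 3 controls as *Ccl2*, *Ccl5* and *Cxcl10*. *Cxcr3*, the receptor of CXCL10, had 0 to 15 counts. Of the 23 receptors listed, 8 were tested and 0 passed in either direction, with 0 at an unadjusted *p*-value under 0.05 (limma). Against the controls without *Xist* counts *Cx3cr1* and *Ccr2* were called up, and between the control classes *Ccr2* was. Of 28 other chemokines 9 were tested and 0 passed (2 at an unadjusted *p*-value under 0.05, limma), and their median log2FC was 0.01 against -0.0021 over all genes. Against the controls without *Xist* counts 2 of the 9, *Cxcl9* and *Cxcl13*, were called up, and between the control classes *Cxcl11* was.

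The gene whose deviations over the 10 retinas were most like those of *Ccl5*, the member with the largest log2FC, was *H2-Q7*, at a root mean square difference of 0.66 on the log2 CPM scale. *Cxcl13* (0.76) and *H2-Q6* (0.81) came next among 18859 genes. *H2-Q7* and *H2-Q6* encode class I histocompatibility proteins and belong to a family of near-identical genes, between which reads can be split. *Cxcl13*, a B cell attractant, had 442, 843, 40, 17 and 22 counts with AAV::eGFP and 151, 640, 417, 695 and 924 with AAV::*nsHif1a*. The likeness describes these 10 libraries and was not tested.

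In the retina, 2 of 22 tested genes of the NF-kB pathway rose and 0 fell with *nsHif1a*. They were *Bcl3* (log2FC 1.67, adjusted *p*-value = 0.033, limma), a coactivator of NF-kB, with 23 to 40 counts in the controls and 38 to 206 with *nsHif1a*, and *Nfkbiz* (0.72, 0.018). Against either control class alone *Nfkbiz* was called and *Bcl3* was not. Of 20 tested genes of the interferon pathway 0 passed (5 at an unadjusted *p*-value under 0.05, limma). Between the controls with and without *Xist* counts, 6 of these 20 were called higher, among them *Stat2*, *Irf7*, *Irf9*, *Ifih1* and *Rigi*. With *nsHif1a* 5 were called lower against the controls with *Xist* counts and 1 higher against those without, where 0.62% and 1.69% of all genes tested were.

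The comparison in 661W cells asks what *nsHif1a* does to chemokine transcripts in a single cell type after 20 h. All members except *Ccl3* and *Ccl12* passed the filter. Of these 8 members, 0 rose and 0 fell (limma, BH over 15962 genes), against 1.21% and 0.0626% of all genes tested. An unadjusted *p*-value under 0.05 was found for 2, *Cxcl10* and *Ccl5*, against 3304 of the 15962 genes (limma). The same shares and background apply to the called and unadjusted counts of other gene lists in the cells below. DESeq2 and edgeR also called 0 of the 8 and had the same 2 at an unadjusted *p*-value under 0.05, whereas edgeR without the filter called *Cxcl10*. *Ccl3* had 0 counts in all 8 libraries. *Ccl12* had 0 counts in the 4 eGFP libraries and 3, 0, 2 and 0 in the *nsHif1a* libraries, which is within the limit that a count of 0 allows.

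*Cxcl10* had 6783, 6102, 5926 and 4344 counts in eGFP libraries 1 to 4 and 21078, 17438, 6949 and 7887 counts in *nsHif1a* libraries 1 to 4. As CPM, *nsHif1a* libraries 1 and 2 (1186 and 1225) were far above every control, whereas library 3 (406) lay just below the highest control (407) and library 4 (467) above it. The means were 369 ± 38.4 and 821 ± 445 CPM (SD, n = 4 each), and the log2FC was 1.04 (SE 0.31, 95% confidence interval 0.35 to 1.73, adjusted *p*-value = 0.11, limma). Without the filter edgeR gave 1.15 (adjusted *p*-value = 0.025). Of the counts of the 10 members, *Cxcl10* held 25.4% to 28.7% over the eGFP libraries and 33.3% to 50.9% over the *nsHif1a* libraries.

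*Ccl5* was the most abundant chemokine transcript of these cells. Its groups did not overlap in CPM, and the share of all genes with such groups was not counted. *Ccl5* was at 558, 568, 593 and 584 CPM with eGFP and at 489, 488, 527 and 522 CPM with *nsHif1a*, from 6949 to 10075 counts per library. The difference was small, with a log2FC of -0.19 (95% confidence interval -0.28 to -0.09, adjusted *p*-value = 0.051, limma), and lay below the fold threshold. Its adjusted *p*-value was 0.0026 with DESeq2 and 0.069 with edgeR.

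The ligands of CCR2 did not move as a group over all replicates. *Ccl2* had 5298, 4885, 4728 and 3426 counts with eGFP and 9030, 7439, 3417 and 3630 with *nsHif1a*, that is 293 ± 29.98 and 361 ± 178 CPM (SD, n = 4 each, log2FC 0.22, adjusted *p*-value = 0.70, limma). Its *nsHif1a* libraries lay on both sides of the controls, with 508 and 523 CPM in libraries 1 and 2 and 200 and 215 CPM in libraries 3 and 4, against 257 to 318 CPM with eGFP. *Ccl7* had 1470, 1422, 1233 and 941 counts against 1789, 1541, 873 and 952 (80.9 ± 10.9 and 79.1 ± 29.5 CPM, log2FC -0.07). *Cxcl1* had 138, 112, 136 and 97 counts against 231, 204, 72 and 95 (7.71 ± 0.52 and 9.29 ± 5.11 CPM, log2FC 0.12). In CPM, all 3 thus had their 2 highest and their 2 lowest libraries in the *nsHif1a* group.

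*Ccl4* had 6, 10, 18 and 20 counts with eGFP and 18, 7, 46 and 51 with *nsHif1a* (log2FC 0.81, adjusted *p*-value = 0.48, limma), and in contrast to *Ccl2* its highest libraries were *nsHif1a* 3 and 4. *Cxcl16* had 95, 69, 87 and 78 counts against 103, 64, 65 and 77 (log2FC -0.17). *Cx3cl1* had 551, 550, 512 and 435 counts against 766, 625, 458 and 476 (32.9 ± 2.27 and 35.5 ± 9.27 CPM, log2FC 0.10). For both, the groups overlapped.

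**Figure D4:**
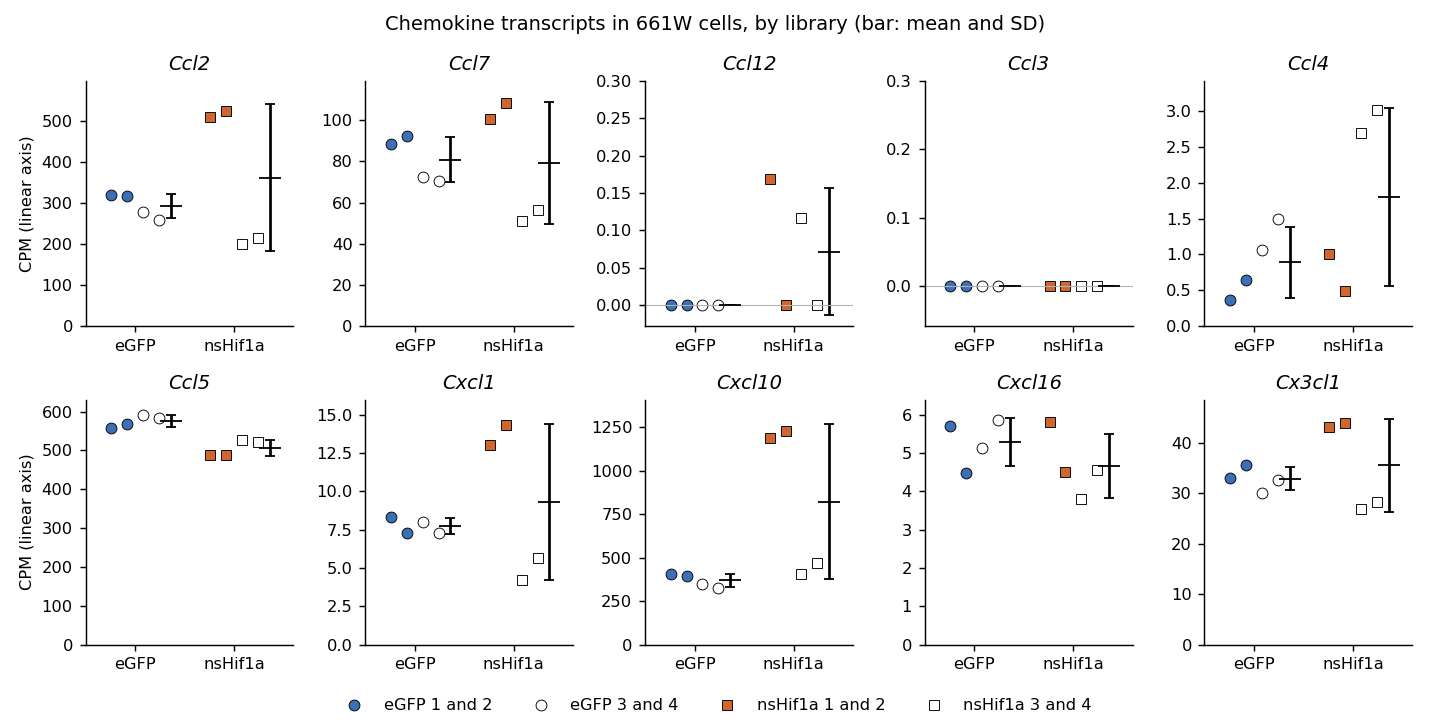
CPM of each chemokine gene in the 8 libraries of 661W cells on linear axes, in library order within a group, with the mean and SD at the side. Filled symbols are replicates 1 and 2 and open symbols replicates 3 and 4; for *Ccl2*, *Ccl7*, *Cxcl1*, *Cxcl10* and *Cx3cl1* the filled squares lie above all controls and, except for *Cxcl10*, the open squares below them.

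The replicates of the cells formed 2 sets, 1 and 2 against 3 and 4, which the labels do not explain, and the effect of *nsHif1a* was fitted in each set after the data had been seen. The difference between the 2 effects had an adjusted *p*-value under 0.05 for 5 of the 8 members, against 19.6% of all genes tested (limma). In replicates 1 and 2, 3 of the 8 members rose and 0 fell, against 7.6% and 4.07% of all genes tested. These were *Cxcl10* (log2FC 1.58, adjusted *p*-value = 3.91e-16), *Cxcl1* (0.80, 0.000102) and *Ccl2* (0.70, 3.2e-12), all with limma. In replicates 3 and 4, 1 rose and 1 fell, against 1.14% and 0.219% of all genes tested. *Ccl4* was the one that rose (1.18, adjusted *p*-value = 0.032, limma) and *Cxcl1* the one that fell (-0.66, 0.029). The shares of all genes in each set apply also to the other gene lists below.

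The effect of *nsHif1a* in replicates 3 and 4 minus that in replicates 1 and 2 was -1.46 for *Cxcl1* (adjusted *p*-value = 7.14e-05), -1.22 for *Cxcl10* (4.81e-11), -1.07 for *Ccl2* (3.06e-11), -0.63 for *Ccl7* (5.36e-06) and -0.52 for *Cx3cl1* (0.000714), all on the log2 scale with limma. *Cxcl10* kept its sign, at 0.37 in replicates 3 and 4, whereas *Ccl2* (-0.37), *Ccl7* (0.21 and -0.42), *Cxcl1* and *Cx3cl1* (0.34 and -0.18) changed sign. *Ccl5* had nearly the same value in both sets, -0.20 and -0.17, with a difference of 0.04 (95% confidence interval -0.03 to 0.11). Each set held 2 libraries per group, and its spread may be technical. With the sets as a covariate over all 8 libraries *Cxcl10* was called (log2FC 0.99, adjusted *p*-value = 0.015, limma).

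**Figure D5:**
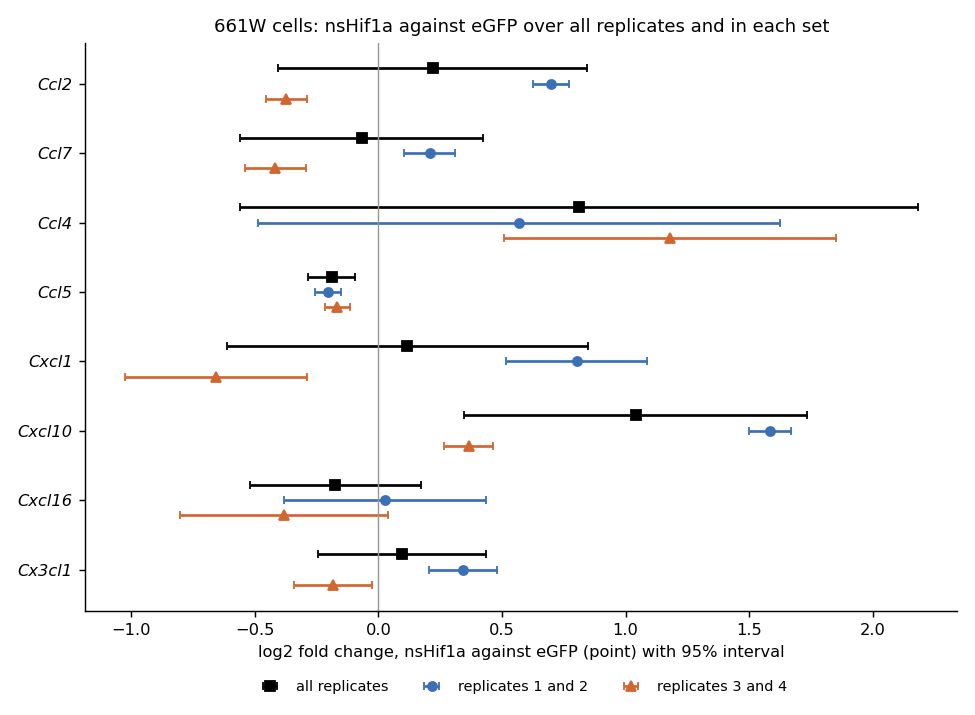
Log2FC of the 8 tested chemokine genes in 661W cells with its 95% interval, over all replicates (squares), in replicates 1 and 2 (circles) and in replicates 3 and 4 (triangles). *Ccl5* lies between -0.20 and -0.17 in all 3, and *Ccl2* and *Cxcl1* lie on opposite sides of 0 in the 2 sets.

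*Hif1a* also stood at different levels in the sets, at 1222 and 1242 CPM in *nsHif1a* libraries 1 and 2 and 1954 and 1825 CPM in libraries 3 and 4, and its part in the chemokine counts was not tested. *Gbp6*, an interferon-induced GTPase, had the deviations most like those of *Cxcl10* over the 8 libraries, at a root mean square difference of 0.07 on the log2 CPM scale, followed by *Iigp1c* (0.09) and *Ly6a* (0.10) among 15962 genes. *Gbp6* and *Iigp1c* belong to families of similar genes, between which reads can be split. Of 21 tested genes of the interferon pathway 3 rose and 0 fell, against 1.21% and 0.0626% of all genes tested. Among the 3 were *Ifnb1* (log2FC 3.16, adjusted *p*-value = 0.0076) and *Stat2* (0.56, 0.043), both with limma. Within the sets 6 rose in replicates 1 and 2 and 1, *Ifnb1*, in replicates 3 and 4, against 7.6% and 1.14% of all genes tested. *Ifnb1*, which encodes interferon beta, had 3, 3, 9 and 8 counts with eGFP and 50, 41, 42 and 88 with *nsHif1a*, and thus was raised in both sets.

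Of 22 tested genes of the NF-kB pathway 2 rose and 0 fell in the cells, *Il6* (log2FC 1.27, adjusted *p*-value = 0.014, limma), a cytokine, and *Tnfaip3* (0.93, 0.0024), an inhibitor of the pathway, and both were also called in each set alone. The chemokine receptors were largely absent, 10 of the 23 listed having 0 counts in all 8 libraries, *Ccr2* among them. *Ccrl2*, an atypical receptor of chemerin related to the chemokine receptors, had 22, 14, 28 and 21 counts with eGFP and 348, 276, 72 and 88 with *nsHif1a*. It was named after its values had been seen. The groups did not overlap, but the share of all genes with such groups was not counted. The spread within *nsHif1a* left *Ccrl2* at a log2FC of 2.86 with an adjusted *p*-value of 0.070 (limma). Of the 2 receptors tested 0 passed (1 at an unadjusted *p*-value under 0.05). Within replicates 1 and 2 and within replicates 3 and 4 *Ccrl2* was called up (limma). Of the 28 other chemokines 9 were tested and 0 passed (2 at an unadjusted *p*-value under 0.05, limma), whereas 2 rose and 3 fell in replicates 1 and 2 and 0 rose and 1 fell in replicates 3 and 4. The 2 proteases had log2FC values of -0.0017 (*Adam10*) and -0.15 (*Adam17*).

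Part of each leukocyte list had counts in the cells, namely 9 of 14 microglia, 4 of 6 monocyte, 3 of 6 neutrophil and 2 of 8 T and NK cell markers. The microglia markers *C1qa*, *C1qb*, *C1qc*, *Trem2* and *Tyrobp* were at 0 in all 8 libraries. The detected microglia markers summed to 65.6 to 73.8 CPM with eGFP, to 96.0 and 96.7 CPM in *nsHif1a* libraries 1 and 2 and to 70.0 and 77.6 CPM in libraries 3 and 4. The monocyte markers summed to 2.66 to 3.08 CPM with eGFP, to 9.91 and 10.01 CPM in *nsHif1a* libraries 1 and 2 and to 1.70 and 2.19 CPM in libraries 3 and 4, and thus were highest in the same libraries as *Cxcl10* and *Ccl2*. Both monocyte markers tested, *Plac8* and *Ly6c2*, were called up in replicates 1 and 2 (limma), and their part in the chemokine counts was not tested. Of the other monocyte markers, *Ccr2* and *Chil3* were at 0 in all 8 libraries and *Lyz2* had 0 to 2 counts. *F13a1* went the other way, at a mean of 0.46 CPM with eGFP and 0.22 CPM with *nsHif1a*. The 3 markers of neutrophils with counts summed to 0.760 to 2.10 CPM.

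Whether the effect of *nsHif1a* differed between retina and cells was tested with an interaction term over all 18 libraries. Of 9 members tested 0 had an adjusted *p*-value under 0.05, against 2.33% of 20999 genes tested (limma). Among them, *Ccl4*, *Ccl7* and *Cxcl1* were under the count filter in the retina, and *Ccl12* in the cells. They entered this test through their counts in the other experiment, so their result cannot show whether the effects differ. An unadjusted *p*-value under 0.05 was found for 1, *Ccl5*, against 3534 of the 20999 genes (limma). The effect on *Ccl5* in the retina minus that in the cells was 3.28 (95% confidence interval 0.995 to 5.56, adjusted *p*-value = 0.12, limma). It passed without AAV::eGFP library 1 (4.43, adjusted *p*-value = 0.039), without AAV::eGFP library 2 (4.48, 0.026) or without AAV::*nsHif1a* library 1 (3.87, 0.034, limma). Without AAV::eGFP library 3, 4 or 5 the smallest adjusted *p*-value of any member was 0.30, 0.35 and 0.45 (limma). Sex was unevenly spread over the retinal groups, and against the controls with *Xist* counts the retinal log2FC of *Ccl5* was below 0. Of the others, *Cxcl10* differed by 2.24 (-1.07 to 5.54) and *Ccl2* by 0.52 (-2.14 to 3.18), both with intervals that were wide and included 0. *Cx3cl1* had the narrowest one, 0.14 (-0.18 to 0.46). DESeq2 and edgeR had 0 members at an unadjusted or adjusted *p*-value under 0.05.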

How the data were processed

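RNA from 10 retinas and 8 libraries of 661W cells was analysed. The authors prepared strand-specific mRNA libraries and mapped the read pairs with Rsubread to GRCm39. Reads were then assigned to gencode M36 genes by featureCounts in antisense mode. The deposited table of each experiment holds these integer counts, neither filtered nor scaled by the authors. Because strand was used, overlapping genes on opposite strands were counted apart.

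Genes with few counts were dropped by filterByExpr (minimum count 10), libraries were scaled by TMM (edgeR 4.0.16), and voomWithQualityWeights values were fitted in limma 3.58.1 under R 4.3.3, with Benjamini-Hochberg adjustment over all genes tested, as in the methods of the study. A gene was called at an adjusted *p*-value under 0.05 and an absolute log2FC above 0.5. Members removed by the filter were fitted with edgeR's quasi-likelihood test without it. CPM are TMM-scaled, and per-kb values use gencode M39 basic exons (78168 of 78239 genes matched by identifier). The text names all 10 members, the called genes and the 3 most abundant control genes of further lists as needed, the 3 genes most like the member with the largest log2FC, and *Hif1a*. Other receptors, *Cxcl13* and *Ccrl2* were named after their values had been seen. The lists were other chemokines, receptors, the proteases, the NF-kB and interferon pathways and markers of microglia, monocytes, T and NK cells, neutrophils, Müller glia, endothelium, rods, cones, RPE and lens.

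Members and lists were chosen with earlier results of these data known. The *Xist* classes and the replicate sets were formed after the data were seen. In the cells, the deviations of same-numbered libraries from their group means correlated at r = 0.227 to 0.269. Libraries of the same set with other numbers correlated as highly (0.246 to 0.287). The correlations thus followed the sets, and a pairing by number within a set was not shown. Alternatives were edgeR, DESeq2 1.42.0, no quality weights, other size factors and filters, the replicate block, covariates and the omission of each library. Procedures were tested on simulated counts. Some genes of the receptor and interferon lists were counted with their lists but are not reported here by name.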

Additional observations from a re-analysis of the deposited data

Results flagged for a closer look

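Of 37 groups of 4 or 5 libraries, 3 held a library far from the others by Dixon's test, which chance does in about 5% of groups. *Ccl2* stood at 4.97 CPM in AAV::eGFP retina 2, against 0.40 to 1.68 CPM in the other 4 controls. *Ccl7* stood at 0.77 CPM in AAV::*nsHif1a* retina 5, against 0.31 to 0.43 CPM in the other 4, and rested on 12 counts. *Cxcl1* stood at 1.3 CPM in AAV::*nsHif1a* retina 4, against 0.07 to 0.32 CPM, and rested on 19 counts.

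In the cells, the effect of *nsHif1a* differed between the replicate sets for 5 of 8 tested members, against 19.6% of all genes tested (limma, BH over 15962 genes). On the log2 scale the effect in replicates 3 and 4 minus that in 1 and 2 was -1.07 for *Ccl2*, -0.63 for *Ccl7*, -0.52 for *Cx3cl1*, -1.46 for *Cxcl1* and -1.22 for *Cxcl10*. The sets were formed after the data were seen, and what set them apart was not tested.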

How the results depend on the processing

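With no library left out, 0 members were called up in the retina under every alternative except the comparison with the controls without *Xist* counts (4), and 0 called down. In the cells 1 was called up with the replicate sets as a covariate and with edgeR without the filter (*Cxcl10* in both), 3 up in replicates 1 and 2, and 1 up and 1 down in replicates 3 and 4. Leaving out 1 library gave 0 to 1 members called up in the retina (*Cxcl10* without AAV::eGFP 2), 0 to 3 in the cells (*Ccl2*, *Cxcl1* and *Cxcl10* without *nsHif1a* 3 or 4, *Ccl4* without *nsHif1a* 2) and 0 to 1 for the difference between retina and cells (*Ccl5*). Without AAV::eGFP 2, 313 of all genes were called up in the retina, against 203 with every library. Over all alternatives 82 to 1213 genes were called up in the cells, and 248 to 3113 differed between retina and cells. The causes were not tested.

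Log2FC values changed sign in the retina for *Ccl2* with edgeR (-0.12), DESeq2 (-0.12) and the replicate block (-0.10). With the *Xist* class as a covariate, or with *Xist* libraries only, they were -1.17 and -1.17 (*Ccl2*), -0.97 and -0.96 (*Ccl5*), -0.39 and -0.40 (*Ccl12*), -0.93 and -0.92 (*Cxcl10*) and -0.16 and -0.15 (*Cxcl16*). In the cells they changed sign for *Ccl7* (0.21) and *Cxcl16* (0.03) in replicates 1 and 2, and for *Ccl2* (-0.37), *Cx3cl1* (-0.18) and *Cxcl1* (-0.66) in replicates 3 and 4. The difference between retina and cells changed sign with edgeR and DESeq2 for *Ccl12* (-2.54 and -1.90), *Ccl2* (-0.41 and -0.42) and *Cxcl10* (-0.81 and -0.81). For *Ccl12*, which was under the count filter in the cells, this sign cannot be read.

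Leaving out 1 library, the log2FC in the cells ranged from -0.41 to 0.75 for *Ccl2*, -0.02 to 1.79 for *Ccl4*, -0.52 to 0.32 for *Ccl7*, -0.21 to 0.37 for *Cx3cl1*, -0.56 to 0.74 for *Cxcl1* and 0.34 to 1.63 for *Cxcl10*. The difference between retina and cells ranged from -0.35 to 0.69 for *Ccl12*, -0.16 to 1.07 for *Ccl2*, -1.44 to 0.30 for *Ccl4*, -0.20 to 0.35 for *Cx3cl1*, 1.86 to 4.48 for *Ccl5*, 0.60 to 3.42 for *Cxcl10*, 0.49 to 1.73 for *Cxcl1*, 0.80 to 1.81 for *Ccl7* and 0.37 to 0.74 for *Cxcl16*. Of these, *Ccl4*, *Ccl7* and *Cxcl1* were under the count filter in the retina and *Ccl12* in the cells, which limits their ranges. In the retina the ranges were 1.38 to 4.31 for *Cxcl10*, 1.67 to 4.32 for *Ccl5*, 0.03 to 1.12 for *Ccl2*, 0.73 to 1.77 for *Ccl12*, 0.16 to 0.54 for *Cxcl16* and 0.10 to 0.19 for *Cx3cl1*.

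With the replicate block, the log2FC of *Cxcl10* in the cells was 0.91 (adjusted *p*-value = 0.13, limma), and no member's call changed in either experiment, while the genes called in the cells went from 193 up and 10 down to 88 and 0. Retinal numbers did not pair libraries (r = -0.148 to 0.138). Over all alternatives, the genes called up numbered 64 to 318 in the retina and 82 to 1213 in the cells, and those called down 52 to 263 and 0 to 682. Depth limits *Ccl3*, *Ccl4*, *Ccl7* and *Cxcl1* in the retina, at 0 to 19 counts per library, and *Ccl12* in the cells.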

Other observations

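In the retina, the 8 rod markers were all lower with AAV::*nsHif1a* (median log2FC -0.23) and the 6 γ-crystallin genes of the lens all higher (median log2FC 2.43), and 0 of either list passed the thresholds (6 of each at an unadjusted *p*-value under 0.05, limma). The lens genes summed to 634 to 2816 CPM in the controls and 920 to 18956 CPM with *nsHif1a*, and with them as a covariate 0 of the 6 tested chemokine members passed (2 at an unadjusted *p*-value under 0.05, limma). Of the endothelial (7 tested), Müller glia (8), cone (7), RPE (6), monocyte (4) and neutrophil (2) markers, 0 passed in the retina, with median log2FC values of 0.28, 0.07, -0.04, -0.13, 1.01 and 0.47. The monocyte median was -1.09 against the controls with *Xist* counts and 1.79 against those without, where *Ccr2* was called up. In the cells 0 of the 2 rod, 2 cone, 4 Müller glia, 3 endothelial, 1 RPE, 2 monocyte, 1 neutrophil and 4 microglia markers tested passed, and no T and NK cell or lens marker was tested there. By unadjusted *p*-value under 0.05 (limma), 3 endothelial, 2 Müller glia, 2 cone and 1 monocyte markers were counted in the retina, and 3 endothelial, 2 Müller glia, 1 cone and 1 microglia markers in the cells.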
